A study of Mus musculus with 5 samples.

Results

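Genes of apoptosis and of the p53 pathway were compared between retina of wild-type mice and of mice mutant for Rb, the retinoblastoma tumour suppressor, on 5 dual-colour spotted arrays. The members were all spots whose single gene symbol in the platform annotation belonged to the caspase, BCL2, programmed cell death, TNF receptor, TRAF, Gadd45, sestrin, p53 or Mdm families, or was 1 of 14 further apoptosis genes. They numbered 39 spots of 31 genes among 17328 spots. Of these, 34 spots of 27 genes were measured on at least 4 of the 5 arrays and entered the tests, among 10036 spots tested in all. In each hybridisation channel 1 carried total RNA of the wild type and channel 2 that of the mutant, labelled "mutant mice (Rb-)". The series title adds that the retina was kept as explants, that is, in organ culture. The sources used here do not give the age, strain, allele or culture time, or whether the arrays came from separate animals. The p-values therefore reflect only how the 5 hybridisations varied, and that variation may be technical.

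Programmed cell death runs along an intrinsic route, in which BCL2 proteins decide whether the mitochondrial outer membrane is permeabilised, and an extrinsic route that starts at death receptors of the TNF receptor superfamily. Both activate caspases, the proteases that dismantle the cell. The transcription factor p53 is held low by the ubiquitin ligase Mdm2 and its partner Mdm4, and after stress induces genes of arrest and death. Loss of Rb frees E2F factors, which drive S-phase genes and can also engage p53, and developing retina removes many of its neurons by apoptosis. The central genes of the pathway were thinly covered here. Of 25 core genes looked up, 19 had no spot under a single symbol, among them Trp53, Trp63, Trp73, Bax, Bid, Bad, Bbc3, Bcl2, Bcl2l1, Mcl1, Apaf1, Casp8, Fas and Fadd, and they are not analysed here.

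Values are deposited log2 ratios of the 2 channels, with each array centred on its median. The dye of each RNA and the order of the deposited ratio are not stated, so signs are those of the deposited ratio and say nothing of which genotype was higher. A ratio gives no level, so the tissue label could not be checked against the level of retinal markers. In such bulk RNA, fewer cells of a type and less RNA per cell cannot be told apart. Spots with a single symbol lay lower than the rest on arrays 1, 3 and 5, with medians of -0.36, 0.007, -0.34, 0.075 and -0.22 on arrays 1 to 5. Members are therefore also set against the 5822 tested single-symbol spots. Those spots spread least on array 2, so ratios near 0 were common there. Their scaled median absolute deviations were 0.95, 0.50, 0.996, 0.62 and 0.67 on arrays 1 to 5. Of the targeted gene Rb1, spot 16891 showed log2 values of -0.065, 0.20, -0.23, 0.043 and -0.081 across arrays 1 to 5, averaging -0.027 ± 0.16 (SD, n = 5, exact two-sided sign-flip permutation p = 0.688, smallest possible 0.0625). The sign of this mean turned positive under 4 other scalings or averages of probes. Spot 13258 gave 0.95, 2.06, -1.33 and 1.72 on arrays 1, 2, 3 and 5 (exact sign-flip p = 0.375, smallest possible 0.125). Whether the allele alters the RNA these spots detect is not known, so they do not check the labels.

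No member passed the test across arrays. With limma and Benjamini-Hochberg adjustment over all 10036 spots, 0 of 34 members had an adjusted p under 0.05, against a background of 0% of all spots, and the smallest adjusted p of a member was 0.432. The unmoderated per-probe test also called 0. At an unadjusted p under 0.05 there were 3 members on the positive side and 0 on the negative. The background among all spots was 5.52% positive and 5.9% negative, and among single-symbol spots 3.35% and 6.18%, against 8.82% and 0% of members. With 34 members these shares rest on single spots. The 3 were spots of Mdm2, Bcl2l12 and Tnfrsf1a, and their number depended on every array but array 2. It was 1 without array 1, 1 without array 3, 1 without array 4 and 0 without array 5. The split also moved with the centring, with 1 positive and 4 negative in uncentred ratios and 5 and 0 when arrays were centred on spots measured on all of them. The median of all spot means moved too, from -0.16 to -0.62 and 0.007. The share of all spots called was not counted without single arrays or with other centring, so these counts describe the members only.

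Of the 34 member spots, 14 had a positive and 20 a negative mean. The negative share of 58.8% lay beside 60.4% of all spots and 65.8% of single-symbol spots. Member means ran from -1.17 to 1.87 log2, with a median of -0.17, where the median over all spots was -0.16. On every measured array 3 members were positive, Bcl2l12, Traf4 and a spot of Tnfrsf1a, which is 8.82% beside 6.5% of all spots and 4.64% of single-symbol spots. On every measured array 2 members were negative, Aifm1 and Trp53i11, which is 5.88% beside 10.1% and 11.7%. A difference of 1 or 2 spots separates these shares from the background. A range of more than 3 log2 between arrays was seen for 10 members (29.4%, against 30.6% of all spots and 23.1% of single-symbol spots). The heat map shows every member on every array.

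**Figure D1:**
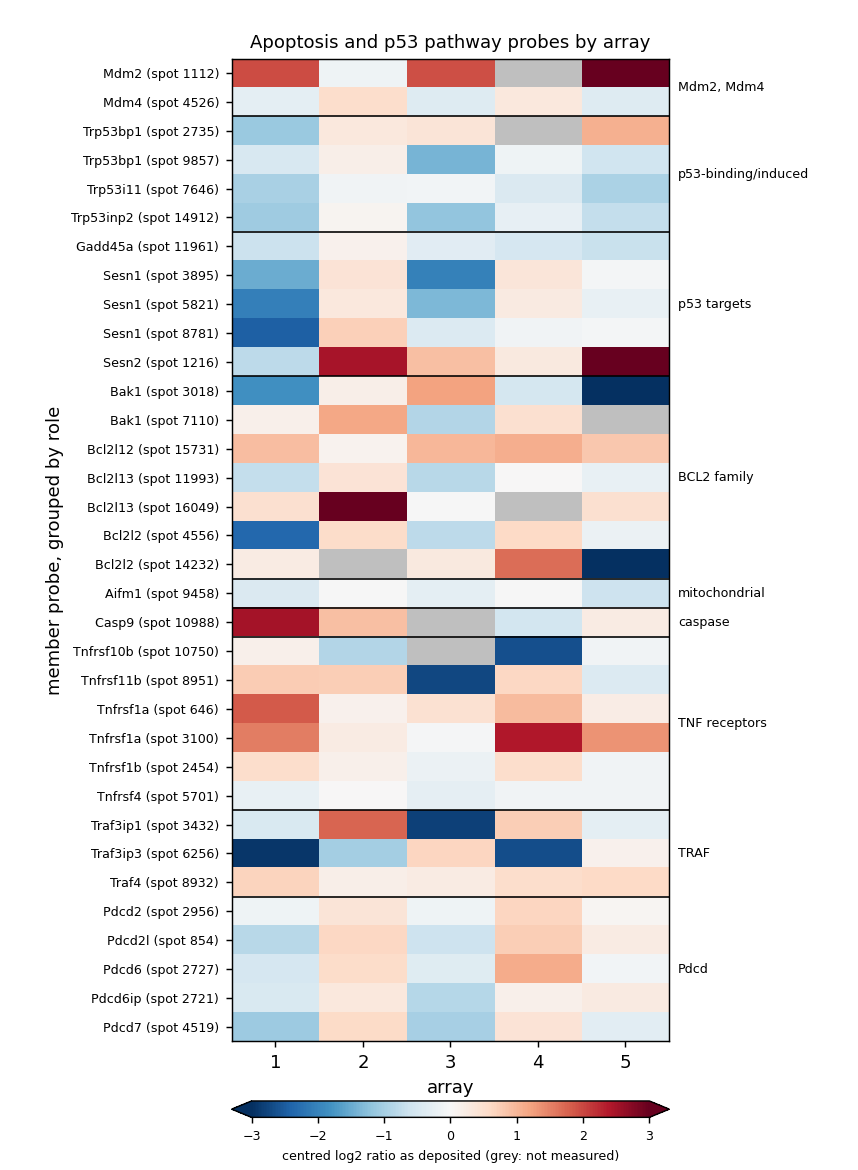
Centred log2 ratio (colour, from -3 to 3, values beyond that at the end colours) of the 34 member spots (rows, grouped by role) on arrays 1 to 5 (columns), grey where not measured. Rows of one sign throughout are few (Bcl2l12, Traf4, Tnfrsf1a spot 646, Aifm1 and Trp53i11), and the programmed cell death rows and those of Sesn1 spots 3895 and 5821 alternate between arrays 1 and 3 and arrays 2 and 4.

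Mdm2, the ubiquitin ligase that p53 itself induces and that returns p53 to a low level, had the highest mean of all members. Its spot showed log2 values of 1.95, -0.14, 1.94 and 3.74 on arrays 1, 2, 3 and 5, and no value on array 4. Arrays 1, 3 and 5 were high and array 2 lay near 0. The mean was 1.87 ± 1.59 (SD, n = 4, limma unadjusted p = 0.0298, adjusted p = 0.432). On arrays 1, 3 and 5 it exceeded 96%, 96.2% and 99.4% of single-symbol spots, and on array 2 it exceeded 37.6%. Without array 5 the mean fell to 1.25. Mdm4, the Mdm2 relative that binds and masks p53, did not follow it. Its values were -0.29, 0.54, -0.40, 0.31 and -0.39 across arrays 1 to 5, averaging -0.047 ± 0.44 (SD, n = 5). Its sign alternated between arrays, and the sign of its mean turned under other scalings.

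Of 4 spots of genes named for binding to p53 or induction by it, 3 had a negative mean, where 65.8% of single-symbol spots did, and 0 had an unadjusted p under 0.05. Trp53inp2, a regulator of autophagy, showed log2 values of -1.07, 0.071, -1.18, -0.25 and -0.73 on arrays 1 to 5, with a mean of -0.63 ± 0.54 (SD, n = 5, limma unadjusted p = 0.0692). Trp53i11, a p53-induced gene, had -0.98, -0.095, -0.091, -0.44 and -0.95, with a mean of -0.51 ± 0.44 (SD, n = 5, limma unadjusted p = 0.104). Both lay lowest or nearly so on array 1 and near 0 on array 2. Trp53bp1, which marks DNA double-strand breaks for repair, was read by 2 spots that disagreed. Spot 9857 gave -0.49, 0.18, -1.39, -0.13 and -0.60 on arrays 1 to 5. Spot 2735 gave -1.11, 0.31, 0.38 and 1.06 on arrays 1, 2, 3 and 5. Their means were -0.49 and 0.16, and they shared a sign on 2 of 4 common arrays.

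Sesn1, a stress-responsive sestrin that p53 induces and that restrains growth signalling through mTORC1, was the member with the best agreement between spots. Spot 3895 showed log2 values of -1.48, 0.41, -2.02, 0.37 and -0.059 on arrays 1 to 5. Spot 5821 gave -2.06, 0.31, -1.36, 0.28 and -0.21. Spot 8781 gave -2.46, 0.72, -0.41, -0.096 and -0.048. All 3 spots were low on array 1, lower than 0 on array 3 and above 0 on array 2, and near 0 on array 5. Spots 3895 and 5821 had the same sign on 5 of 5 arrays and differed by a median of 0.15 log2. The means were -0.56 ± 1.12, -0.61 ± 1.06 and -0.46 ± 1.19 (SD, n = 5 each), with limma unadjusted p-values of 0.262, 0.205 and 0.368. Without arrays 1 and 3, an alternative chosen after seeing the data, the means were 0.24, 0.13 and 0.19. Without array 1 alone the mean of spot 8781 was 0.042.

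Arrays 1 and 3 were also those with the largest ratios of the rod, cone, ganglion and amacrine, and replication lists. The median of 18 rod spots (9 genes of 13 listed) minus the median of all spots was -3.67, 0.11, -3.71, -0.40 and -0.069 on arrays 1 to 5. That of 28 replication and mitosis spots (24 genes of 36 listed) was 1.92, 0.044, 2.10, 0.89 and -0.019. Its 3 smallest limma p-values were those of Smc2, a condensin subunit, Mad2l1, of the spindle checkpoint, and Rpa2, of the single-strand DNA-binding complex. Their means were 2.03 ± 1.22, 1.47 ± 0.88 and 1.497 ± 1.11 (SD, n = 5 each), with limma adjusted p-values of 0.395, 0.409 and 0.423. The cone list (7 spots) gave -1.10, 0.32, -1.34, 0.44 and -0.42, and the ganglion and amacrine list (9 spots) gave -0.63, 0.045, -1.06, -0.34 and -0.012. Sesn1 was low on the arrays where rod, cone and inner neuron lists were low, and whether they play a part in its ratio was not tested. The Muller glia list (11 spots) gave -0.83, 0.046, -0.11, 0.13 and 0.096. Other lists were too thin to describe a cell type, with 3 spots each for vessels and pigment epithelium, 1 for microglia and leukocytes and 0 for red cells.

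The other sestrin and Gadd45 spots did not share one pattern. Sesn2, a sestrin that responds to nutrient and genotoxic stress, showed log2 values of -0.78, 2.48, 0.90, 0.30 and 3.33 on arrays 1 to 5. It was high on arrays 2 and 5 and low on array 1, with a mean of 1.25 ± 1.66 (SD, n = 5, limma unadjusted p = 0.0877). Gadd45a, a p53 target that acts in growth arrest and repair, had -0.65, 0.13, -0.34, -0.50 and -0.66. It was negative on 4 of 5 arrays within a narrow range, with a mean of -0.40 ± 0.33 (SD, n = 5, limma unadjusted p = 0.155). Sesn3, seen on 3 arrays and not tested, gave -1.27, 1.47 and -0.63 on arrays 2, 3 and 4. Among the 3 genes of this group that p53 is known to induce and that were tested, Sesn1 and Gadd45a had negative means and Sesn2 a positive one.

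Promoter windows of the members were searched for a p53 half-site, of which p53 binds a pair. RefSeq windows (GRCm38.p6) of the 250 bases before the start were found for 28 of the 31 member genes, 31 windows in all. Pdcd2, Tnfrsf10b and Tnfrsf11b had no window and were not searched. The half-site consensus is a decamer whose pattern reads the same on both strands. It was present in 4 of 31 member windows (12.9%), those of Mdm2, Sesn1, Gadd45a and Pdcd7, against 7.13% of 32851 windows of the same length. Mdm2, Sesn1 and Gadd45a are shown, 5′ to 3′ on the gene's strand, with the half-site match in capitals. They were picked as textbook p53 targets with a match, so the choice says nothing of how often such targets hold one.
Mdm2, chr10:117710759-117711008, minus strand: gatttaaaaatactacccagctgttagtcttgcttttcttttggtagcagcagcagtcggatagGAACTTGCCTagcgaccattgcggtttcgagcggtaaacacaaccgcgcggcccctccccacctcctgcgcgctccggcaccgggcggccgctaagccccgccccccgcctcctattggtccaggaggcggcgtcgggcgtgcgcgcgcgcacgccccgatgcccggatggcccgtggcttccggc
Sesn1, chr10:41887189-41887438, plus strand: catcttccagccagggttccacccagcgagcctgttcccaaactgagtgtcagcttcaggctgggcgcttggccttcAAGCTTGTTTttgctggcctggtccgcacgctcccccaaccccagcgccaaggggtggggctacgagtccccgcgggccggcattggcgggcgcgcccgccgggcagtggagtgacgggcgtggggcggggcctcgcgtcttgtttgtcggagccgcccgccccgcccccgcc
Gadd45a, chr6:67037408-67037657, minus strand: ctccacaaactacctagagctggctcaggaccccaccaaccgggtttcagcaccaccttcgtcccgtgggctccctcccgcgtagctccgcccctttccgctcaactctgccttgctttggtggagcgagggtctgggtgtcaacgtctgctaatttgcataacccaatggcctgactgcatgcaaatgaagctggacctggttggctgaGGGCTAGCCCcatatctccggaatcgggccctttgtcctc
The matches begin 186, 173 and 40 bases before the start. The ratios of these 3 genes differed in sign and size, with means of 1.87 for Mdm2, -0.46 to -0.61 for Sesn1 and -0.40 for Gadd45a. The other Sesn1 window and those of Sesn2 and Sesn3 held no match. A match describes the letters only, and binding was not measured here. The matches were not compared with known p53 sites of these genes, which may lie outside the windows.

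In the BCL2 family, Bcl2l12 was the only member of the 34 at an unadjusted p under 0.05 that also had the same sign on all 5 arrays. Bcl2l12, a proline-rich BCL2-related protein, showed log2 values of 0.92, 0.11, 0.99, 1.10 and 0.81 on arrays 1 to 5. Arrays 1, 3, 4 and 5 lay close together and array 2 lay near 0. The mean was 0.79 ± 0.39 (SD, n = 5, limma unadjusted p = 0.0215, adjusted p = 0.432). It exceeded 86.8%, 87.9%, 92.1% and 88% of single-symbol spots on arrays 1, 3, 4 and 5, and 59.9% on array 2. In uncentred ratios its mean was 0.33. Without array 2 the mean was 0.95.

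The remaining BCL2 genes were each read by 2 spots, which shared a sign on at most 2 of 4 common arrays. Bak1 encodes a pore-forming effector of the mitochondrial membrane. Its spot 3018 showed log2 values of -1.83, 0.19, 1.20, -0.52 and -4.65 on arrays 1 to 5. Its spot 7110 gave 0.15, 1.16, -0.87 and 0.47 on arrays 1 to 4. The signs agreed on 1 of 4 common arrays, and the means were -1.12 ± 2.26 (SD, n = 5) and 0.23 ± 0.85 (SD, n = 4).

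Bcl2l2 encodes BCL-W, which protects cells from apoptosis. Spot 4556 gave -2.36, 0.55, -0.78, 0.60 and -0.18 on arrays 1 to 5, low on arrays 1 and 3, with a mean of -0.43 ± 1.22 (SD, n = 5). Spot 14232 gave 0.25, 0.29, 1.67 and -4.01 on arrays 1, 3, 4 and 5, so its negative mean of -0.45 rested on array 5 and was 0.74 without it. Bcl2l13, or BCL-Rambo, is a mitochondrial protein with a role in mitophagy. Spot 11993 gave -0.72, 0.41, -0.83, 0.020 and -0.22 on arrays 1 to 5. Spot 16049 gave 0.49, 5.35, -0.005 and 0.48 on arrays 1, 2, 3 and 5. The value on array 2, above 99.9% of single-symbol spots, set its mean of 1.58 ± 2.52 (SD, n = 4).

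Of the mitochondrial proteins that act once the outer membrane opens, Aifm1, the flavoprotein known as apoptosis-inducing factor, had a usable spot. Its log2 values were -0.43, -0.009, -0.30, -0.019 and -0.63 on arrays 1 to 5. All were below 0, yet the values on arrays 2 and 4 lay at 0 within 0.02. The mean was -0.28 ± 0.27 (SD, n = 5, limma unadjusted p = 0.290), and on every array but array 5 it lay between 43.9% and 51.8% of single-symbol spots. Casp9, the initiator caspase of the intrinsic route, gave 2.49, 0.91, -0.55 and 0.24 on arrays 1, 2, 4 and 5. Arrays 1 and 2 were high and array 4 below 0, with a mean of 0.77 ± 1.292 (SD, n = 4, limma unadjusted p = 0.212). Casp2, an initiator caspase linked to DNA damage, was measured on 3 arrays and not tested, with -0.76, -1.16 and 2.05 on arrays 1, 4 and 5.

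Tnfrsf1a, the main receptor for tumour necrosis factor and a route to both survival and death signalling, was positive by both of its spots. Spot 646 showed log2 values of 1.83, 0.13, 0.46, 0.94 and 0.22 on arrays 1 to 5. Spot 3100 gave 1.54, 0.25, -0.039, 2.40 and 1.34. Both were high on arrays 1 and 4 and low on array 2, the signs agreed on 4 of 5 arrays, and 9 of 10 values lay above 0. The means were 0.72 ± 0.70 and 1.10 ± 1.00 (SD, n = 5 each), with limma unadjusted p-values of 0.0692 and 0.0350 and adjusted p-values of 0.442 and 0.432. In uncentred ratios the means were 0.26 and 0.64. On arrays 1 and 4 the spots lay between 89.6% and 98.3% of single-symbol spots.

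The other TNF receptors stayed nearer 0 or varied between arrays. Tnfrsf1b, the second TNF receptor, showed log2 values of 0.53, 0.16, -0.17, 0.53 and -0.094 on arrays 1 to 5. It was above 0 on arrays 1, 2 and 4 and below 0 on arrays 3 and 5, and the mean was 0.19 ± 0.33 (SD, n = 5). Tnfrsf10b, the death receptor for TRAIL and a p53 target, had 0.15, -0.89, -2.64 and -0.11 on arrays 1, 2, 4 and 5. It was negative on 3 of 4 arrays, most on array 4, with a mean of -0.87 ± 1.26 (SD, n = 4, limma unadjusted p = 0.160). Tnfrsf11b, or osteoprotegerin, a secreted decoy receptor, had 0.75, 0.73, -2.73, 0.62 and -0.42, and without array 3 its mean turned from -0.21 to 0.42. Tnfrsf4, or OX40, a receptor of activated T cells, had the smallest range of all members, from -0.27 to 0.020. Tnfrsf9, seen on 2 arrays and not tested, gave 2.03 and 1.62 on arrays 2 and 5.

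Among genes named for TRAF adaptors, which carry the signal of TNF receptors, Traf4 varied little between arrays. Its log2 values were 0.66, 0.17, 0.25, 0.53 and 0.60 on arrays 1 to 5. All 5 were positive and between 64.1% and 84.4% of single-symbol spots. The mean was 0.44 ± 0.22 (SD, n = 5, limma unadjusted p = 0.106), and in uncentred ratios it was -0.018, so its sign rests on the centring. Traf3ip3 had -2.93, -1.02, 0.65, -2.66 and 0.12, the lowest mean of all members at -1.17 ± 1.61 (SD, n = 5, limma unadjusted p = 0.0979). Arrays 1 and 4 set that mean. Traf3ip1, a component of intraflagellar transport in cilia despite its name, had -0.46, 1.74, -2.80, 0.73 and -0.28. It was high on array 2 and low on array 3, and without array 3 its mean turned from -0.22 to 0.43. Traf6 had a value on array 3 alone, 0.72.

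E2F sites were also searched, because Rb acts through E2F. The motif was any of TTTCCCGC, TTTCGCGC, TTTGCCGC and TTTGGCGC on either strand, which does not overlap the p53 half-site in the windows where it was found. It was present in 2 of 31 member windows (6.45%), those of Traf4 and Casp2, against 1.86% of all windows. The share rests on 2 windows. Member windows also differed from all windows in other letters, with GGGCGG on either strand in 64.5% against 32.7%. The window of Traf4, the one of these 2 genes that was tested, is shown with the motif in capitals, 174 bases before the start. No link between the motif and the ratio was tested.
Traf4, chr11:78165551-78165800, minus strand: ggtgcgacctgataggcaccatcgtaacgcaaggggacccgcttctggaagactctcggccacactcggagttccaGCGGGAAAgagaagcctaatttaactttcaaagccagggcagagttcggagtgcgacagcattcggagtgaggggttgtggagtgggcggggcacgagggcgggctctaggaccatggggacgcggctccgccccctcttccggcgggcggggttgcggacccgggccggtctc
The other members with a window, including Mdm2, Bcl2l12 and Tnfrsf1a, held no such match in it, which says nothing of E2F binding elsewhere.

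The genes with the name programmed cell death encode proteins of unlike tasks, and 5 of their 6 spots changed sign between arrays in one order. Pdcd7, a protein of the minor spliceosome, showed log2 values of -1.09, 0.57, -1.01, 0.42 and -0.31 on arrays 1 to 5. Pdcd2l gave -0.84, 0.62, -0.62, 0.73 and 0.24. Pdcd6, the calcium-binding protein ALG-2, gave -0.51, 0.55, -0.38, 1.11 and -0.089. All were negative on arrays 1 and 3 and positive on arrays 2 and 4, so that the means over arrays were close to 0, at -0.28, 0.027 and 0.14. Pdcd2, a chaperone of a ribosomal protein, gave -0.12, 0.38, -0.13, 0.65 and 0.052. Pdcd6ip, the ESCRT-associated protein ALIX, gave -0.47, 0.32, -0.86, 0.16 and 0.27 by spot 2721. These 5 tested spots had the same order of signs on arrays 1 to 4, which depends on where 0 lies. Pdcd2 lay above the single-symbol median on every array, between 58.8% and 82.4% of those spots. Spot 4491 of Pdcd6ip, seen on 3 arrays and not tested, went against it, with 1.00, 1.35 and 0.44 on arrays 1, 3 and 4.

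This alternation was wider than the programmed cell death genes. Of the 28 member spots measured on arrays 1 to 4, 11 spots of 10 genes were negative on arrays 1 and 3 and positive on arrays 2 and 4, and 0 had the opposite pattern. Beside the Pdcd spots they were Mdm4, Bcl2l2 spot 4556, Bcl2l13 spot 11993, Sesn1 spots 3895 and 5821, and Traf3ip1. The share was 39.3%, against 15.1% of all spots and 17.1% of single-symbol spots. The opposite pattern was seen in 6.96% and 4.2% of them. The pattern was noticed in these values and got no test, and it depends on where 0 lies. Relative to the single-symbol median of each array, 8 of 28 members (28.6%) and 9.37% of single-symbol spots had it. Arrays 1, 3 and 5 had deposited medians of -0.76, -0.72 and -0.74, against -0.025 and -0.058 on arrays 2 and 4. Of arrays 1 to 4, arrays 1 and 3 had the low deposited medians, an offset that centring removed. They also had the largest rod and replication ratios, which cannot be told apart from the offset on these arrays. On array 5, Pdcd2, Pdcd2l and Pdcd6ip spot 2721 lay above 0, at 0.052, 0.24 and 0.27, and the other spots of the pattern below 0. The part of the offset or of those ratios was not tested.

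Within single arrays the members lay around the middle of the single-symbol spots, save on array 2. Above the single-symbol median lay 15 of 34 members on array 1, 28 of 33 on array 2, 17 of 32 on array 3, 19 of 31 on array 4 and 22 of 33 on array 5. A shift or rescaling of an array does not change these counts. On array 2 the excess came from small ratios, with a member median of 0.31 against 0.007. The member median minus that of all spots was -0.26, 0.33, -0.10, 0.28 and 0.038 across arrays 1 to 5, averaging 0.059 ± 0.25 (SD, n = 5). The large opposite ratios of rod and replication genes on arrays 1 and 3 were not seen in the member median.

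**Figure D2:**
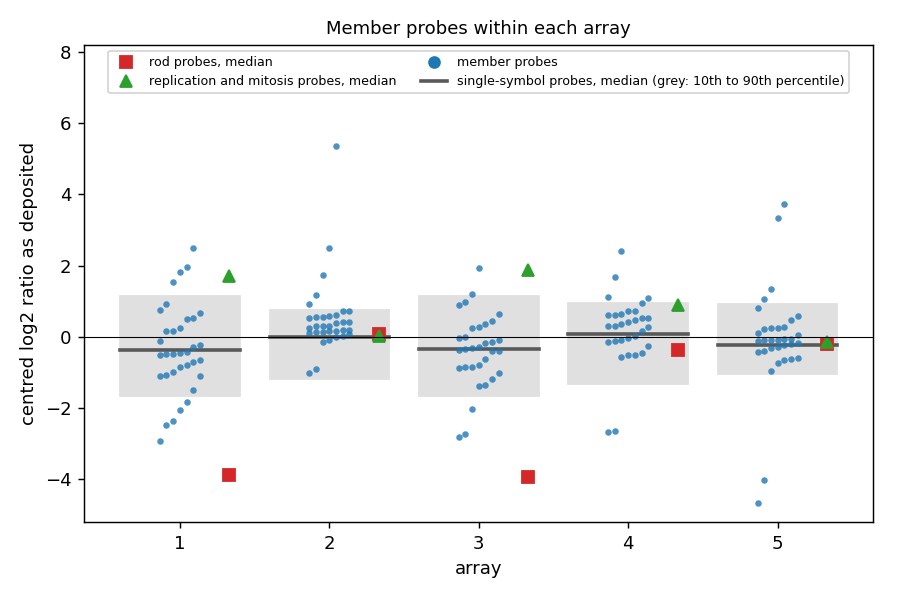
Centred log2 ratio of the member spots (blue points) on each array, over the 10th to 90th percentile (grey) and median (line) of single-symbol spots, with medians of the rod (square) and replication and mitosis (triangle) spots. On array 2, 28 of 33 members lie above the line, and on arrays 1 and 3 most members lie between the far apart rod and replication medians.

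Over the 27 members on all 5 arrays, Pearson correlation between pairs of arrays ran from -0.25 for arrays 2 and 3 to 0.66 for arrays 1 and 4. Over 4420 single-symbol spots it ran from -0.089 for arrays 1 and 2 to 0.41 for arrays 1 and 3. For arrays 1 and 3 the members gave 0.071 by Pearson and 0.22 by Spearman, so these values depend on few spots and are a description only. Spots of one gene share a target, so their agreement bears on how far a ratio can be read. The 8 pairs of spots of 6 member genes had the same sign of the mean in 5 pairs (62.5%), against 58.1% of 1463 pairs over all single-symbol genes. Those 5 include every pair among the Sesn1 spots, and such pairs are not independent. The pairs of Bcl2l2 and Tnfrsf1a also shared the sign of the mean, and those of Bak1, Bcl2l13 and Trp53bp1 did not. Over the 8 pairs the median difference on an array was 0.76 log2, against 0.90 over all single-symbol genes.

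**Figure D3:**
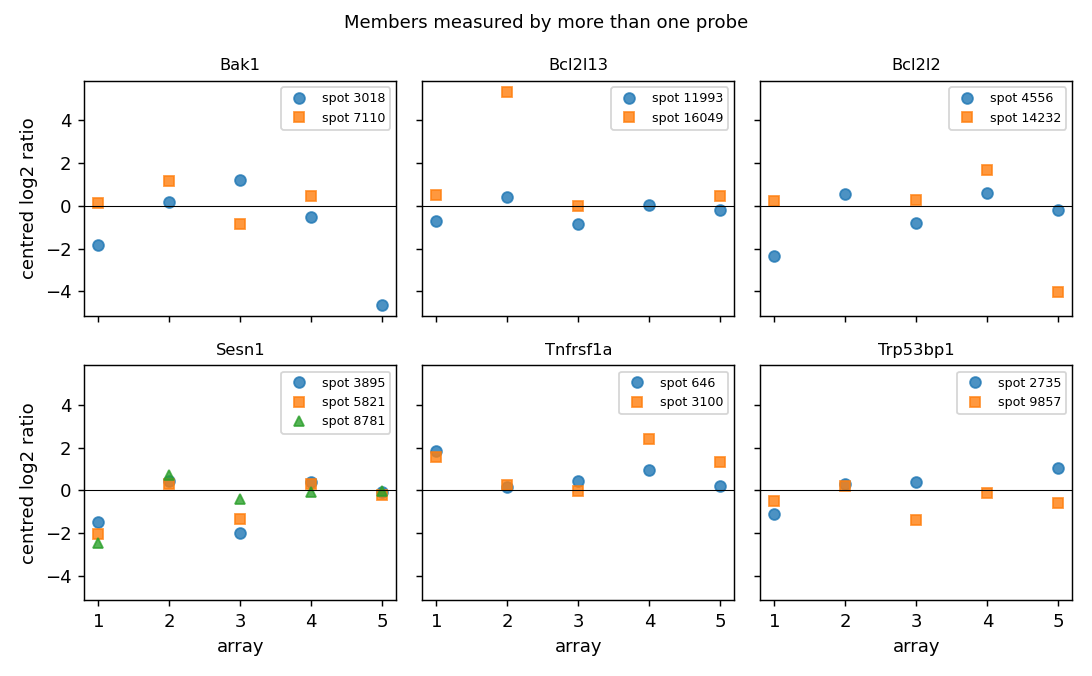
Centred log2 ratio on arrays 1 to 5 for the 6 member genes read by more than one tested spot, with a symbol for each spot. Sesn1 spots 3895 and 5821 lie within 0.67 log2 of each other, while spots 3895 and 8781 differ by up to 1.615. The 2 Tnfrsf1a spots differ by up to 1.46. Those of Bak1, Bcl2l13, Bcl2l2 and Trp53bp1 part on several arrays, by up to 1.76 for Trp53bp1 and 4.94 log2 for Bcl2l13.

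Other genes of the pathway, from lists drawn up by known function, likewise gave 0 spots past the adjusted threshold. Other p53 targets had 9 spots (8 genes of 30 listed). At an unadjusted p under 0.05, 1 was positive and 0 negative, where 3.35% and 6.18% of single-symbol spots were. The positive spot was Pcna, the replication clamp, with 1.21, -0.074, 1.88, 1.20 and 0.34 on arrays 1 to 5 (limma unadjusted p = 0.0381, adjusted p = 0.432). Pcna is also a replication gene and stood on that list. Cdkn1a, the p21 inhibitor that p53 induces, gave 3.05, -0.055, 2.99, 0.64 and -0.76. Like Mdm2 it was high on arrays 1 and 3 and near 0 on array 2, but on array 5 Mdm2 was at 3.74 and Cdkn1a below 0. Btg2, an antiproliferative p53 target, gave -1.94, -0.47, -1.02, 0.32 and -0.89. Its sign was opposite to that of Cdkn1a on arrays 1 and 3 and the same on arrays 2, 4 and 5.

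Genes that signal DNA damage to p53 had 7 spots (6 genes of 27 listed), 2 positive and 1 negative at an unadjusted p under 0.05. The background at that threshold was 3.35% positive and 6.18% negative among single-symbol spots, and 5.52% and 5.9% among all spots. With 7 spots these counts rest on single spots and got no test as a list. Usp7, the deubiquitinase that stabilises Mdm2 and p53, showed log2 values of -0.40, -2.64, -2.41, -1.13 and -3.97 on arrays 1 to 5 (limma unadjusted p = 0.00644, adjusted p = 0.409). It was negative on all 5 arrays and lowest on array 5. Nbn, of the break-sensing MRN complex, gave 1.36, -0.085, 1.74 and 1.995 on arrays 1 to 4, with a limma unadjusted p of 0.0313. Atm, the kinase that activates p53, gave 1.38, 2.03, 0.54, 0.58 and 0.020, positive on all 5, with a limma unadjusted p of 0.0403.

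Apoptosis genes outside the members had 33 spots (27 genes of 61 listed), with 0 at an unadjusted p under 0.05 on either side and 24 negative means against 9 positive. The lowest p-values belonged to Endog, a mitochondrial nuclease, with a mean of -1.06 ± 1.20, Dapk3, a death-associated kinase, with -0.72 ± 0.67, and Acin1, a caspase substrate of chromatin condensation, with -0.56 ± 0.53 (SD, n = 5 each). The other Dapk3 spot, 13638, lay nearer 0, with a mean of -0.26 ± 0.35 (SD, n = 5). Negative means also prevailed among single-symbol spots, at 65.8%. At an unadjusted p under 0.05, 3.35% of single-symbol spots were positive and 6.18% negative. The NF-kB list, the survival branch of TNF receptor signalling, had 6 spots (5 genes of 19 listed) and 0 at an unadjusted p under 0.05. Its subunit Rela gave -0.049, -0.040, -3.01, 0.50 and -4.45 on arrays 1 to 5, so its mean of -1.41 rested on arrays 3 and 5. Nfkbib, an inhibitor of NF-kB, had a mean of -0.45 ± 0.61 (SD, n = 5) and Ikbkg, the scaffold of the kinase that removes such inhibitors, 0.28 ± 0.40 by its spot on 4 arrays, 10190. By its spot on 5 arrays, 11433, the Ikbkg mean was 0.033 ± 0.81 (SD, n = 5).

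**Figure D4:**
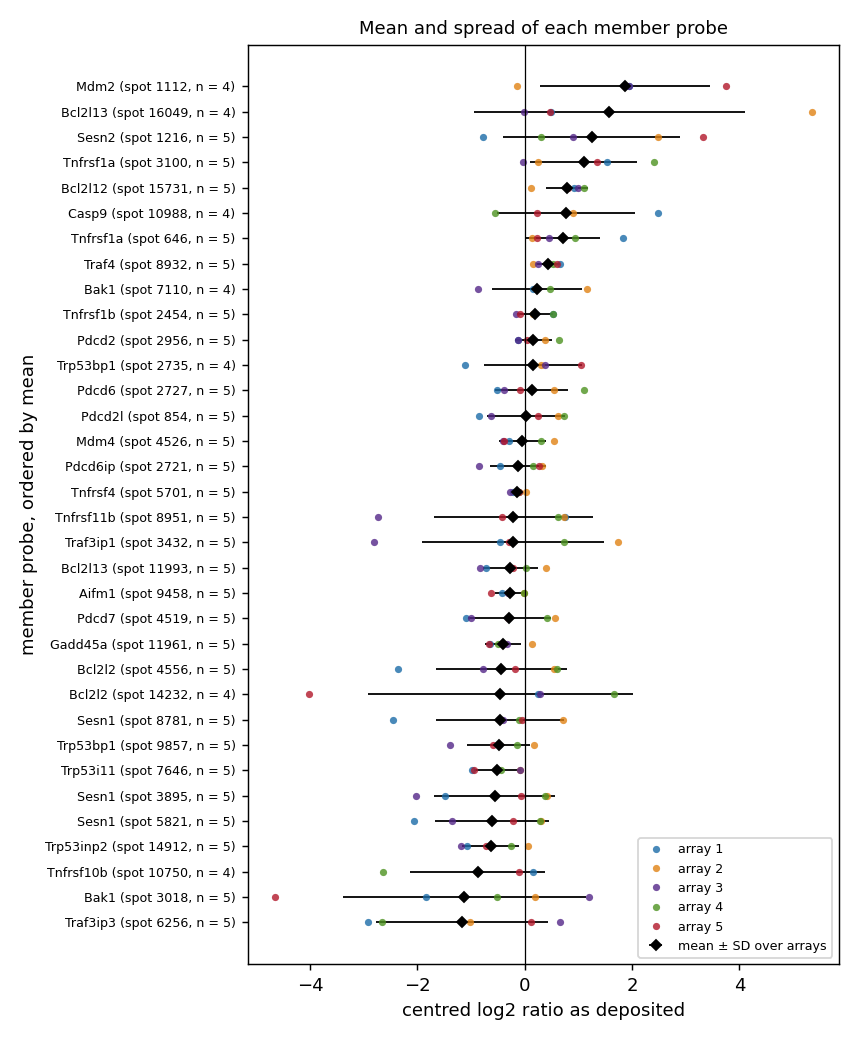
Mean ± SD over the arrays that measured each spot (black) and the values on single arrays (colours) of the 34 member spots, ordered by mean, as centred log2 ratio. Means run from -1.17 for Traf3ip3 to 1.87 for Mdm2, and for most spots the SD reaches across 0.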

How the data were processed

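The values were log2 ratios deposited by the authors for 17328 spots on each of 5 arrays, with the log2 scale read from the values. Per the labels, scans at 532 and 635 nm were read in GenePix Pro 4.1.1.29, and local background was subtracted without normalizing. What left cells empty is not stated. Cells at 16.61, the log2 of 100000, were treated as a filler and set to missing, and 0 of them fell on members, while 20 member cells were empty. Usable ratios covered 71.8% to 75.9% of spots. Each array was centred on its median. Spots on at least 4 arrays, without the 192 ACTB controls, were tested against 0 with limma 3.58.1 (R 4.3.3), lmFit and eBayes, Benjamini-Hochberg adjustment over all 10036 and a threshold of 0.05. The number of arrays limits the precision.

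Names came from the platform annotation, and all 39 member spots matched RefSeq (GRCm38.p6) by gene identifier. The members and lists were chosen with earlier results of these data known. Genes named were Rb1, the core genes wherever measured, the smallest p-values on each side, the widest ranges, spots of one gene that disagreed and the 3 smallest p-values of each pathway list. The remaining members were added so that all are given, and Btg2 was among the 3 of its list. Alternatives were other centring, scaling and filters, array weights, gene means, leaving out arrays, and scan focus position (10 on arrays 1 to 3, 0 on arrays 4 and 5).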

Additional observations from a re-analysis of the deposited data

Results flagged for a closer look

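In 3 of 59 results examined, 1 array lay far from the rest, where chance at 1 in 20 gives 2.95. The 59 were spots and medians of member groups, which share spots and so are not independent. All 3 were spots. Bcl2l13 spot 16049 reached 5.35 log2 on array 2, while its remaining 3 arrays spanned -0.005 to 0.49. On array 3 Endog fell to -3.16, while its remaining arrays spanned -0.91 to -0.20. Nfkbib lay at -1.54 on that array, while its remaining arrays spanned -0.26 to -0.14.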

How the results depend on the processing

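The 19 other settings gave 0 members past the adjusted threshold, and 14 of 34 member spots kept the sign of their mean under each setting that could measure them (17 to 19 settings), among them Mdm2, Bcl2l12, both Tnfrsf1a spots, Sesn2, Gadd45a, Aifm1, Trp53i11 and Trp53inp2. The member median minus that of all spots ran from -0.01 to 0.22. Unless named, the cause of a change was not tested. Positive members at an unadjusted p under 0.05 numbered 1 uncentred, 5 with arrays centred on spots measured on all of them, 0 on arrays 1 to 3, 1 on arrays 4 and 5, 1 without arrays 1 and 3 and 0 to 3 without single arrays. Negative ones numbered 4 uncentred, 1 with spots on all 5 arrays and 0 to 1 without single arrays. Members positive on every array numbered 1 uncentred, 7 with the other centring, 5 on arrays 1 to 3, 8 on arrays 4 and 5, 11 without arrays 1 and 3 and 4 to 6 without single arrays. Those negative on every array numbered 5 uncentred, 0 with the other centring, 9 on arrays 4 and 5 and 2 to 7 without single arrays. Fewer arrays make one sign easier to hold. These shifts of centring moved the median of all spot means from -0.16 to -0.62 and 0.007. The 19 settings also put 0 of all spots past the adjusted threshold. For the counts of sign and of unadjusted p, and for the 14 of 34 that kept their sign, shares of all spots were not counted in these settings. Those counts therefore do not set members apart from other spots.

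The means that turned sign follow. Uncentred, they were -0.16 for Bak1 spot 7110, -0.12 for Ikbkg spot 10190, -0.29 for Pdcd2, -0.43 for Pdcd2l, -0.32 for Pdcd6, -0.27 for Tnfrsf1b, -0.018 for Traf4 and -0.40 for Trp53bp1 spot 2735. With the other centring they were 0.14 for Rb1 spot 16891, 0.12 for Mdm4, 0.051 for Pdcd6ip and 0.030 for Tnfrsf4. Scaling gave 0.002 for Rb1, 0.031 for Mdm4 and 0.094 for Traf3ip1, and quantile normalization 0.012 for Rb1 and 0.048 for Mdm4. Array weights gave 0.005 for Mdm4, 0.029 for Pdcd6ip and 0.11 for Traf3ip1. Averaging spots gave 0.33 for Rb1, -0.94 for Bak1, 0.50 for Bcl2l13 and -0.19 for Trp53bp1. On arrays 1 to 3 they were 0.27 for Bcl2l2 spot 14232, -0.28 for Pdcd2l, -0.11 for Pdcd6 and -0.14 for Trp53bp1. On arrays 4 and 5 they were 0.21 for Bcl2l2 spot 4556, -0.16 for Casp9, -0.057 for Cdkn1a, 0.21 for Pdcd6ip, 0.054 for Pdcd7, 0.16 and 0.033 for Sesn1 spots 3895 and 5821, 0.10 for Tnfrsf11b and 0.22 for Traf3ip1. Without arrays 1 and 3, added after seeing the data, they were 0.054 for Rb1, 0.070 for Bcl2l13 spot 11993, 0.32 for Bcl2l2 spot 4556, -0.057 for Cdkn1a, 0.15 for Mdm4, 0.25 for Pdcd6ip, 0.23 for Pdcd7, 0.24, 0.13 and 0.19 for Sesn1, 0.31 for Tnfrsf11b and 0.73 for Traf3ip1. Without single arrays the means ran from -0.082 to 0.60 for Bak1 spot 7110, -1.16 to 0.74 and -0.69 to 0.047 for Bcl2l2 spots 14232 and 4556, -0.19 to 0.040 for Mdm4, -0.15 to 0.24 for Pdcd2l, -0.11 to 0.30 for Pdcd6, -0.22 to 0.069 for Pdcd6ip, -0.084 to 0.024 for Rb1 spot 16891, -0.75 to 0.042 for Sesn1 spot 8781, -0.45 to 0.42 for Tnfrsf11b, -0.70 to 0.43 for Traf3ip1 and -0.14 to 0.58 for Trp53bp1 spot 2735.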
